A study of Mus musculus with 6 samples.

Results

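Cul5 is the scaffold of a ubiquitin ligase, an enzyme complex that marks proteins for degradation, and the study removed it from T cells and asked how gene expression differed when these cells became Th9 cells. Described here are 47 genes of the cell cycle and of DNA replication, taken by name from a fixed list. All 47 were found in the authors' gene-level table, and all 47 were among the 12925 genes tested out of 22400 with a count. They comprised 23 genes used in late G1 and S phase (G1/S genes), 19 used in G2 and mitosis (G2/M genes), 3 inhibitors of cyclin-dependent kinases (CDKs), and Nek6 and Iqgap3, which the study drew in a figure of genes chosen in part on these same samples. The 3 WT samples came from C57BL/6 mice that the labels call WT, and for which the methods use Cul5fl/fl littermates lacking CD4-Cre in most experiments, and the 3 Cul5 cKO samples came from C57BL/6 mice with the genotype Cul5fl/flCD4-Cre, all 8 to 10 weeks old. CD4-Cre acts from the stage at which thymocytes turn on Cd4, so that every T cell descended from it, CD8 T cells included, can lose the floxed exons. Naive CD4+ T cells of both genotypes were purified, activated and kept under Th9 polarizing conditions (IL-4, TGF-β and antibody to IFN-γ) for 48 h, and both genotypes carry these shared treatments. Neither the labels nor the methods say whether the 3 samples of a genotype were separate mice, so p-values measure only the spread between these samples, which may be technical.

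A naive T cell is out of the cycle and enters it about a day after activation. D cyclins with Cdk4 and Cdk6, and then E cyclins with Cdk2, release E2F factors from the retinoblastoma (Rb) proteins, and E2F factors turn on the genes that license origins, unwind DNA and supply nucleotides. Genes for mitosis are turned on later, in G2, through CHR elements and CCAAT boxes in their promoters. The inhibitors p21 (Cdkn1a), p27 (Cdkn1b) and p18 (Cdkn2c) hold CDKs back, and p27 and p18 are characteristic of resting lymphocytes.

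The promoters below are shown because they hold the letters that separate the groups of genes, or because they belong to the genes that the results turn on. They were taken from RefSeq (GRCm38.p6), run 5′ to 3′ on the strand of the gene and end just before the annotated start, and capitals mark matches, on either strand, to the E2F motif (TTTCCCGC or TTTGGCGC), the CHR element (TTTGAA) or the CCAAT box (CCAAT). Rrm2 (chr12:24708004-24708240, plus strand) encodes the small subunit of ribonucleotide reductase. Mcm6 (chr1:128359706-128359955, minus strand) encodes a subunit of the helicase that opens DNA, and stands for the G1/S genes. Ccnb2 (chr9:70421555-70421804, minus strand) encodes cyclin B2 and stands for the G2/M genes. Cdkn1a (chr17:29093519-29093768, plus strand) and Cdkn1b (chr6:134920151-134920400, plus strand) encode p21 and p27. The stretch of Cdkn1a also lies in an intron of a longer transcript of that gene that starts further upstream, and the others lie before their genes' main starts.
Rrm2: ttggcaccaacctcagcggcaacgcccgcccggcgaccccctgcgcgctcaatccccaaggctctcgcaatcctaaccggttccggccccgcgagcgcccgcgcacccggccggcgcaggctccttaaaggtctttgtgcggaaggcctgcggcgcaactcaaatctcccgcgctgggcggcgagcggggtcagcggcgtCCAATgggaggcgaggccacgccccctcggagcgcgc
Mcm6: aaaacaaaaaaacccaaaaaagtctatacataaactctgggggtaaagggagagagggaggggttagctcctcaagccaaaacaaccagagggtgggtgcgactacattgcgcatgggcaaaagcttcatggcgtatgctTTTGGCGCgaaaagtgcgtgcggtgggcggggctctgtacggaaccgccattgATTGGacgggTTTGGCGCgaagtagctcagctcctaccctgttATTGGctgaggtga
Ccnb2: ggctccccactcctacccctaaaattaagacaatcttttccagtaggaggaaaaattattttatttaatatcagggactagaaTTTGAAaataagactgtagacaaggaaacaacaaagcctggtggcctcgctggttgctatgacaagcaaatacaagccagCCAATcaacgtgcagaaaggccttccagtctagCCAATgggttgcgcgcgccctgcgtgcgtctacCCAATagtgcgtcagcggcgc
Cdkn1a: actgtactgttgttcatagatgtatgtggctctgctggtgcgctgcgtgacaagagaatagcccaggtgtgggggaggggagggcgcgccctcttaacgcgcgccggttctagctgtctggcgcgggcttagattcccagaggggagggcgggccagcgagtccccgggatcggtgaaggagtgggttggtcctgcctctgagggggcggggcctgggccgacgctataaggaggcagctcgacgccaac
Cdkn1b: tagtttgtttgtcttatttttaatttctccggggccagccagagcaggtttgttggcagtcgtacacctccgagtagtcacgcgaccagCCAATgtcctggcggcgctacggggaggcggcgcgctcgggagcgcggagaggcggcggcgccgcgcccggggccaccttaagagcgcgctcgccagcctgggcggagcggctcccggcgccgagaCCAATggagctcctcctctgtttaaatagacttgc

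Positions are counted back from the end of the printed stretch. Rrm2 held 1 CCAAT box, at 37 bases (50 bases before the RefSeq start, since the stretch stops at an earlier annotated start), and Mcm6 held the E2F motif at 110 and at 47 bases beside a CCAAT box, read on the other strand, at 57 and at 14 bases. Ccnb2 held CCAAT boxes at 87, 54 and 21 bases and a CHR element at 167 bases, with another CHR element 5 bases into the transcript that is not printed. Cdkn1b held CCAAT boxes at 161 and 35 bases, and Cdkn1a held no match to any of these letters. A window of 300 bases, of which 250 lie before the start, was at hand for 40 of the 47 genes. The E2F motif stood in 8 of 20 G1/S windows (40.0%), in 0 of 15 G2/M windows and in 3.16% of the windows of all 9770 tested genes that have one. The CHR element stood in 2 of 20 G1/S windows, in 10 of 15 G2/M windows (66.7%) and in 12.2% of all windows. CCAAT boxes were in 12 of 20 G1/S windows, in 14 of 15 G2/M windows (93.3%) and in 39.2% of all windows. CHR and CCAAT together were found in the same 10 G2/M windows and in 5.21% of all. A match is a description of letters and not a site that was shown to be bound.

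Libraries held between 3944803 counts (WT replicate 3) and 23454552 counts. The lowest count of any of the 47 genes in any library was 112, so that depth did not keep any of them below the floor of 3 counts. CPM are counts scaled to library totals, with each total multiplied by edgeR's normalization factor (TMM). These factors were from 1.011 to 1.02 in WT and from 0.9689 to 0.9943 in Cul5 cKO. Cul5 itself, the check of the labels, averaged 66.2 ± 2.67 CPM in the WT group (SD, n = 3). In the Cul5 cKO group it averaged 12.6 ± 1.82 CPM (SD, n = 3), which is 19.1% of WT (log2 fold change -2.39, edgeR adjusted p 0.000992). The 8 markers of CD4 T cells summed to between 1786 and 1848 CPM in WT and to between 1666 and 1707 CPM in Cul5 cKO, with Cd28 called lower. Markers of other cells were low. B cell markers summed to between 15.1 and 19.2 CPM in WT and between 6.47 and 48.0 CPM in Cul5 cKO, those of CD8 T cells to between 5.76 and 6.53 and between 4.30 and 11.7 CPM, and those of myeloid cells to between 4.01 and 8.13 and between 2.56 and 11.0 CPM, with Cd14 at or below the floor. Erythroid markers summed to at most 0.897 CPM in WT and to between 1.07 and 2.54 CPM in Cul5 cKO, and of the NK cell markers Ncr1 and Klra8 were at 0 in every library. The part of these other cells in the values below was not tested.

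Of the 47 genes, 1 passed the test at an adjusted p under 0.05 (edgeR's quasi-likelihood test over all genes tested). This was Rrm2, which rose. DESeq2 on the same counts called 4 of the 47 (Rrm2, Cdk6, Nek6 and Cdkn1b) and 5.94% of all genes to which it gave an adjusted p. In the background, 133 of 12925 genes (1.03%) were called, 79 higher in Cul5 cKO (0.611%) and 54 lower (0.418%). At an unadjusted p under 0.05 there were 9 of the 47 genes, 6 higher and 3 lower, against 21.3% of all genes. The 3 WT and 3 Cul5 cKO values did not overlap for 9 of the 47 genes against 27.5% of all genes, with Cul5 cKO above WT for 6 (14.0% of all genes) and below for 3 (13.5%). The plot of log2 fold changes shows each gene with its interval. Of the 42 G1/S and G2/M genes, 40 had a 95% interval of the fold change that lay within 1.5-fold, all 42 had one within 2-fold, and 39 had an estimate under 0.2 in size on the log2 scale.

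**Figure D1:**
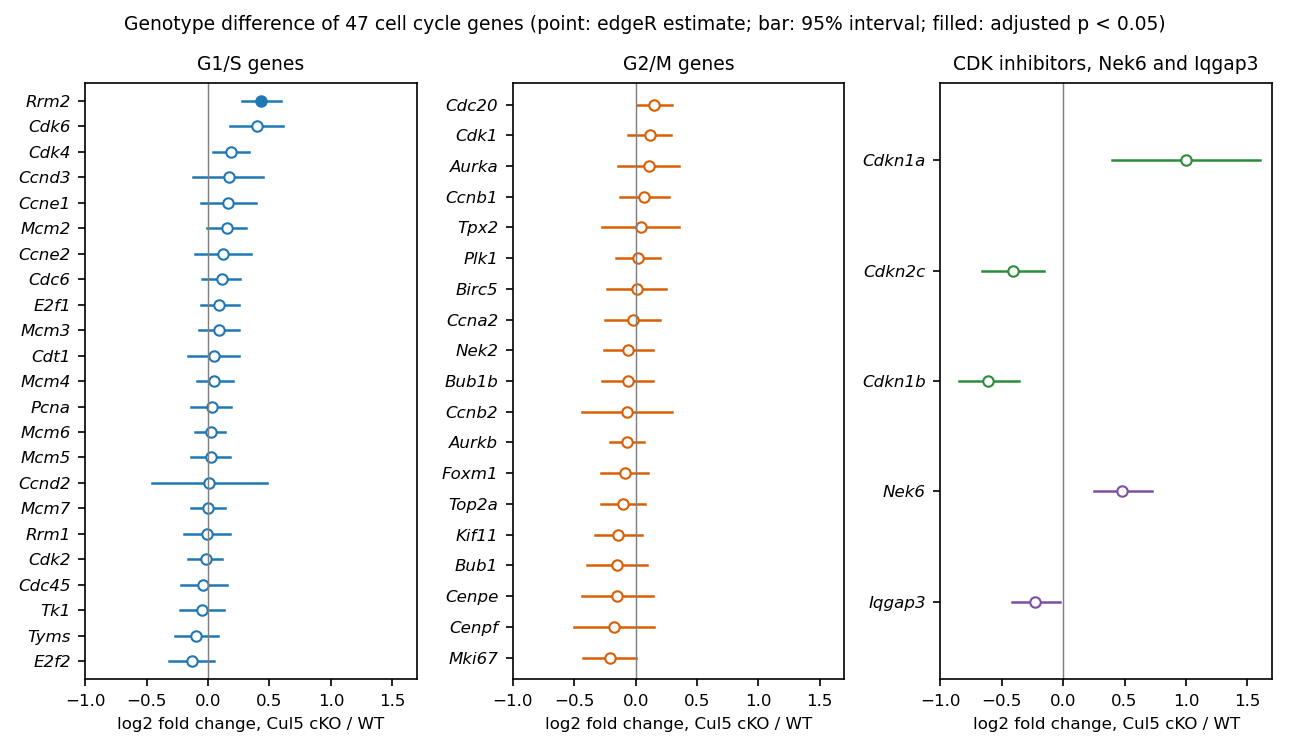
The log2 fold change (Cul5 cKO over WT, x axis) of each of the 47 genes is drawn as a point with its 95% interval as a bar, in panels for G1/S genes, for G2/M genes, and for the CDK inhibitors with Nek6 and Iqgap3. Rrm2 at 0.43 is the filled point, the call at an adjusted p under 0.05, and the widest interval is that of Cdkn1a, from 0.40 to 1.6.

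Rrm2 and Rrm1 are the small and large subunits of ribonucleotide reductase, which makes the deoxynucleotides for DNA synthesis. Rrm2 (chr12:24708241-24714146, GRCm38) measured 388.9, 378.2 and 362.9 CPM in WT replicates 1, 2 and 3 and 526.8, 469.3 and 532.2 CPM in Cul5 cKO replicates 1, 2 and 3. The lowest Cul5 cKO sample was above the highest WT sample, and the means of 377 and 509 CPM differ by 1.35-fold (log2 fold change 0.43, SE 0.0683, adjusted p 0.0389). The log2 fold change stayed between 0.38 and 0.50 under every alternative. Its adjusted p was 0.153 when WT replicate 2 was left out and 0.182 when WT replicate 3 was. Leaving out a Cul5 cKO sample gave 0.0734 (replicate 1), 0.0594 (replicate 2) or 0.178 (replicate 3). It was 0.111 on the authors' gene-level values and from 0.101 to 0.119 on values derived from TPM, so the call was lost in all of these. Rrm1 measured 576.7, 495.8 and 493.7 CPM in WT and 539.2, 487.6 and 532.0 CPM in Cul5 cKO, with a log2 fold change of -0.01 (SE 0.0802) and overlapping groups. Per transcript length, in TPM, Rrm1 was at 211 ± 14.2 in WT and 195 ± 14.4 in Cul5 cKO, and Rrm2 at 274 ± 8.99 and 358 ± 23.5 (SD, n = 3).

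The other enzymes of nucleotide supply did not pass the test. Thymidylate synthase (Tyms) measured 108.4, 98.8 and 107.3 CPM in WT and 104.7, 92.1 and 97.0 CPM in Cul5 cKO (log2 fold change -0.10, SE 0.0750). Thymidine kinase (Tk1) measured 160.8, 141.9 and 145.0 CPM against 153.5, 138.8 and 140.4 CPM (log2 fold change -0.05, SE 0.0762). Both groups overlapped for either gene. Between 49.8% and 72.9% as many counts as Tyms fell on each of 3 other genes that share a stretch of at least 95% identity with it, so its reads may be divided with them.

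The CDKs and cyclins of G1 and S phase comprised 7 genes, 6 with a positive estimate, and none passed the test (median log2 fold change 0.16). Cdk6, a partner of D cyclins that lymphocytes rely on, measured 123.8, 130.6 and 134.6 CPM in WT and 152.9, 191.7 and 166.6 CPM in Cul5 cKO. The groups did not overlap, and the log2 fold change of 0.40 (SE 0.0930) had an adjusted p of 0.0937 over all 6 samples, of 0.0343 in replicates 2 and 3 alone and of 0.0168 with a term for replicate 1. With 1 sample left out the adjusted p of Cdk6 was from 0.0677 to 0.274 by edgeR. It was 0.256 by limma on the authors' gene-level values. Cdk4, the other partner of D cyclins, measured 372.3, 364.0 and 333.0 CPM against 393.9, 415.2 and 409.5 CPM. Its groups did not overlap either (log2 fold change 0.19, SE 0.0630, adjusted p 0.161), but the log2 fold change in the authors' gene-level values was 0.04. Reads of Cdk4 can be divided with Tspan31, a gene on the opposite strand of the same stretch that holds 18.3% as many counts.

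Ccnd2, which encodes the cyclin D2 induced by activation, varied most between replicates among the G1/S genes. It measured 463.4, 754.0 and 638.2 CPM in WT and 483.9, 666.0 and 717.5 CPM in Cul5 cKO, so that replicate 1 was the lowest of both genotypes and the log2 fold change was 0.01 with an interval from -0.46 to 0.48. Cyclin D3 (Ccnd3), the other D cyclin on the list, had a log2 fold change of 0.17 (SE 0.121), and the E cyclins Ccne1 and Ccne2, which act with Cdk2, had 0.16 (SE 0.0960) and 0.12 (SE 0.0989). WT and Cul5 cKO samples overlapped for all 3 genes. Cdk2 averaged 120 ± 3.20 CPM in the WT group and 118 ± 1.5 CPM in the Cul5 cKO group (SD, n = 3), with a log2 fold change of -0.02 and an interval from -0.16 to 0.11.

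The helicase that unwinds DNA at the fork is built of the subunits Mcm2 to Mcm7, and none of the 6 passed the test. Their log2 fold changes ran from 0.00 (Mcm7) to 0.15 (Mcm2, SE 0.0688), with those of Mcm5, Mcm6 and Mcm7 turning negative under some alternatives, and WT and Cul5 cKO overlapped for each. Summed over the 6, the level was 2729, 2795 and 2612 CPM in WT and 2798, 2748 and 2889 CPM in Cul5 cKO. Mcm6, whose promoter is printed above, measured 613.4, 600.9 and 570.1 CPM against 614.2, 585.3 and 604.5 CPM, an interval from -0.11 to 0.14 on the log2 scale. The loaders of this helicase, Cdc6 and Cdt1, had log2 fold changes of 0.11 (SE 0.0673) and 0.05 (SE 0.0875), and Cdc45, which activates it, had -0.04 (SE 0.0786). Pcna, the clamp that holds DNA polymerases on the template, averaged 525 CPM in the WT group and 534 CPM in the Cul5 cKO group (log2 fold change 0.03, interval from -0.14 to 0.19).

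E2f1 and E2f2 encode activating E2F factors and are themselves targets of E2F. E2f1 had a log2 fold change of 0.09 (SE 0.0678) with overlapping groups. E2f2 was the lowest G1/S gene in the comparison, with 118.3, 105.7 and 104.0 CPM in WT and 106.1, 95.3 and 98.4 CPM in Cul5 cKO (log2 fold change -0.13, SE 0.0778, adjusted p 0.368). The groups overlapped. Over all 23 G1/S genes, 17 estimates were positive and 6 negative, with a median log2 fold change of 0.05 beside -0.01 over all genes tested. By library size alone these medians were 0.005 and -0.051, and by limma on log2(TPM + 1) they were -0.002 and -0.046. Both medians were thus lower under these scalings, and the G1/S median stayed above that of all genes.

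The G2/M genes, which belong to mitosis, held no call among 19, and 1 (Cdc20) had an unadjusted p under 0.05 by edgeR. Of these, 7 estimates were positive and 12 negative, the median log2 fold change was -0.06, and it was 0.01 without WT replicate 1. Mki67 (Ki-67), which coats mitotic chromosomes and marks cycling cells, had the highest CPM of the 47 genes, at 1266, 1078 and 1146 CPM in WT and 1116, 914 and 980 CPM in Cul5 cKO. WT replicate 2 lay below Cul5 cKO replicate 1, so the groups overlapped, and the log2 fold change of -0.21 (SE 0.0924) had an adjusted p of 0.239. When the fit of all 6 samples also held a term for replicate 1, its log2 fold change was again -0.21 and the adjusted p was 0.0382, a call. With 1 sample left out and no such term, the adjusted p of Mki67 was from 0.132 to 0.515 by edgeR. In bulk RNA, fewer cells in a phase of the cycle cannot be told apart from less RNA of these genes in each cell. Topoisomerase II alpha (Top2a), which untangles replicated DNA, had a log2 fold change of -0.10 (SE 0.0766).

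The mitotic cyclins Ccna2, Ccnb1 and Ccnb2 and their kinase Cdk1 ran from -0.07 to 0.12 on the log2 scale. Cdk1 measured 132.0, 123.3 and 129.1 CPM in WT and 128.2, 140.3 and 147.8 CPM in Cul5 cKO (log2 fold change 0.12, SE 0.0734). Ccnb2 measured 141.9, 95.7 and 106.0 CPM against 125.8, 102.4 and 100.1 CPM, and replicate 1 was the highest in both genotypes. Its log2 fold change was -0.07 with an interval from -0.44 to 0.30. For Ccna2 and Ccnb1 it was -0.02 (SE 0.0955) and 0.07 (SE 0.0852). The groups of all 4 genes overlapped.

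The kinases of mitosis gave estimates from -0.15 to 0.11. Aurora A (Aurka), which works at spindle poles, measured 110.0, 89.5 and 93.9 CPM in WT and 109.5, 94.7 and 112.1 CPM in Cul5 cKO (log2 fold change 0.11, SE 0.103). Bub1, a kinase of the spindle checkpoint, measured 107.3, 85.4 and 86.3 CPM against 90.2, 79.0 and 82.5 CPM (log2 fold change -0.15, SE 0.106). The groups of both genes overlapped. Aurora B (Aurkb), its partner survivin (Birc5), Plk1, Nek2 and the checkpoint protein Bub1b lay between -0.07 and 0.02.

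Among genes of the spindle and kinetochore, the kinetochore protein Cenpf measured 132.1, 104.7 and 112.6 CPM in WT and 120.8, 86.3 and 102.5 CPM in Cul5 cKO (log2 fold change -0.18, SE 0.139, adjusted p 0.504). Cenpe, a kinetochore motor, measured 132.4, 107.3 and 118.4 CPM against 120.9, 90.8 and 111.6 CPM (log2 fold change -0.15, SE 0.124). Overlap between the groups was seen for both, as for the spindle motor Kif11 at -0.14 (SE 0.0814) and the spindle assembly factor Tpx2 at 0.04 (SE 0.132). Cdc20, which activates the anaphase-promoting complex, measured 208.3, 196.9 and 192.3 CPM in WT and 226.8, 212.6 and 225.3 CPM in Cul5 cKO. It was the G2/M gene with the highest estimate and the 1 whose groups did not overlap (log2 fold change 0.15, SE 0.0617, adjusted p 0.217). Elovl1 lies on the opposite strand of an exon of Cdc20, holds 67.1% as many counts and was itself called higher (log2 fold change 0.53, adjusted p 0.0306). Neither the labels nor the methods state whether the libraries keep the strand. In all, 9 of the 47 genes share exonic sequence with a gene on the opposite strand that holds at least 5% as many counts. Among them are Ccne2 with Ints8 (132%), Cdc45 with Ufd1 (76.8%), Mcm7 with Cops6 (20.4%), Ccnd3 with Bysl (20.2%) and Ccna2 with Exosc9 (12.7%). These percentages compare the counts of whole genes and not the reads on the shared stretch. How far the levels depend on shared reads was not tested. Cenpf also shares stretches of at least 95% identity with several other genes. Foxm1, the factor that drives many G2/M genes, had a log2 fold change of -0.09 (SE 0.0812).

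Cdkn1a and Cdkn1b had the largest estimates of the 47 genes, in opposite directions, and none of the 3 CDK inhibitors passed the test of genotype alone, although all 3 had an unadjusted p under 0.05. With the difference of replicate 1 as a term over the same 6 samples, all 3 passed, at adjusted p values of 0.000741 (Cdkn1a), 0.0105 (Cdkn1b) and 0.0217 (Cdkn2c). Cdkn1a (p21, chr17:29090976-29100727), a target of p53 that also responds to cytokines, measured 122.0, 67.6 and 77.4 CPM in WT and 233.7, 149.9 and 154.2 CPM in Cul5 cKO. Every Cul5 cKO sample lay above every WT sample, the means of 89.0 and 179 CPM differ by 2-fold (log2 fold change 1.0, SE 0.257), and the adjusted p was 0.109. Replicate 1 was the highest of both genotypes, and replicates 2 and 3 by themselves gave a log2 fold change of 1.09 with an SE of 0.0775 and an adjusted p of 0.00682. In those 4 samples the gene rose. With 1 sample left out the adjusted p of Cdkn1a was from 0.0443 to 0.31 by edgeR. It was 0.182 by limma on the authors' gene-level values. Stretches of Cdkn1a transcripts have at least 95% identity with several other genes, so some of its reads may be divided with them.

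Cdkn1b (p27, chr6:134920401-134925513), which keeps resting T cells out of the cycle, measured 72.4, 84.1 and 96.2 CPM in WT and 56.8, 55.0 and 53.04 CPM in Cul5 cKO. The groups did not overlap, and the means of 84.2 and 55.0 CPM give 0.657-fold (log2 fold change -0.61, SE 0.105). The adjusted p was 0.0506 over all samples, 0.0134 in replicates 2 and 3 alone (log2 fold change -0.72), and between 0.0266 and 0.212 with 1 sample left out. It was 0.044 by library size alone, 0.0239 without a filter beyond 1 count in total, 0.0417 with at least 10 counts in every sample and 0.000132 by DESeq2, so that the gene was called in those. It was not called on counts scaled from TPM (edgeR, 0.0703) or on the authors' gene-level values (limma, 0.119). Cdkn2c (p18, chr4:109660876-109667189), an inhibitor of Cdk4 and Cdk6, measured 33.3, 28.5 and 28.3 CPM against 24.0, 23.5 and 20.5 CPM. Again no value overlapped (log2 fold change -0.41, SE 0.106, adjusted p 0.109 by genotype alone, 0.0706 in replicates 2 and 3, and 0.0217 with the term for replicate 1). With 1 sample left out the adjusted p of Cdkn2c was from 0.109 to 0.336 by edgeR. It was 0.246 by limma on the authors' gene-level values. The plot of CPM by sample sets these genes side by side.

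**Figure D2:**
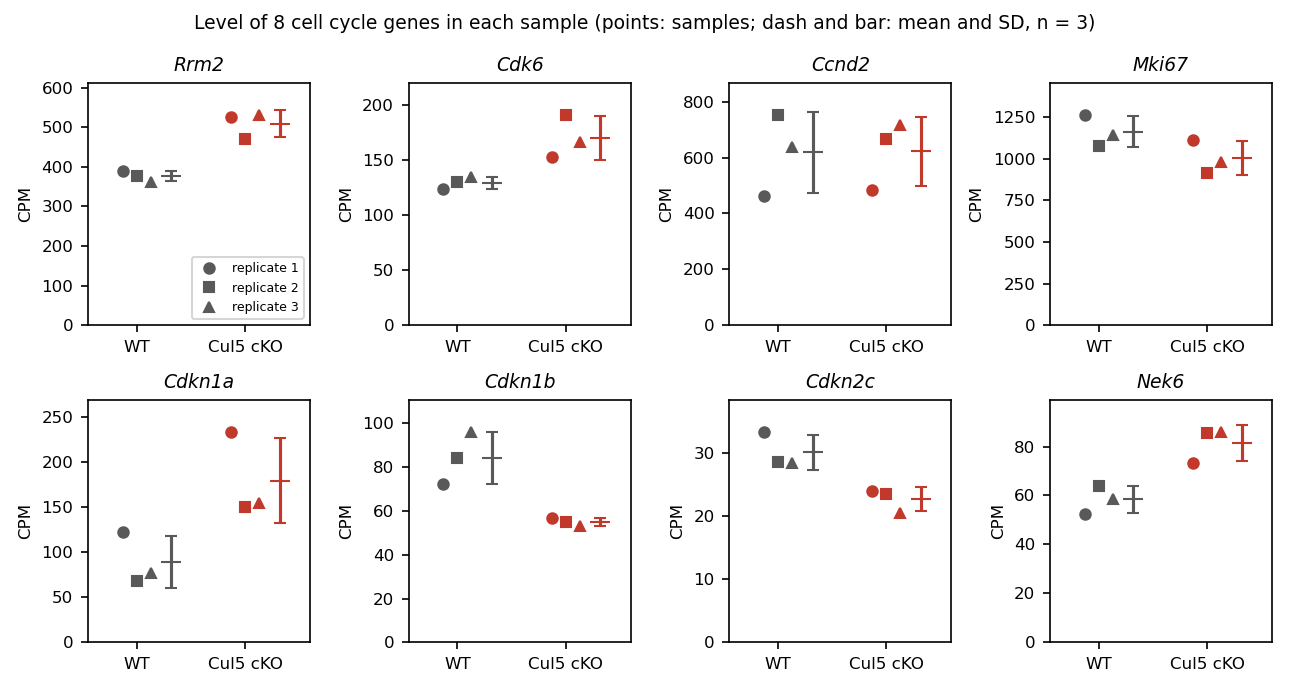
CPM (y axis, from 0) in each of the 3 WT and 3 Cul5 cKO samples is plotted for Rrm2, Cdk6, Ccnd2, Mki67, Cdkn1a, Cdkn1b, Cdkn2c and Nek6, with symbols for the replicate number and the mean and SD beside them. Rrm2, Cdk6, Cdkn1a and Nek6 were higher in each Cul5 cKO sample than in any WT sample, Cdkn1b and Cdkn2c were lower, and replicate 1 stood apart for Ccnd2 and Cdkn1a in both genotypes.

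Nek6, a kinase that acts in mitotic spindle assembly, and Iqgap3, a scaffold protein of dividing cells, were drawn by the study. Its heatmaps hold genes from public data on T helper subsets that also differed between genotypes in these samples. The direction of both genes here is therefore not independent evidence. For Nek6 the paper also reports STAT6 binding in public ChIP-seq data. Nek6 (chr2:38511643-38594606) measured 52.5, 63.9 and 58.7 CPM in WT and 73.1, 85.6 and 86.0 CPM in Cul5 cKO, without overlap (log2 fold change 0.48, SE 0.101, adjusted p 0.0741, and 0.0197 in replicates 2 and 3 alone). Psmb7 lies over it on the opposite strand with 218% of its counts and had a log2 fold change of 0.14 (adjusted p 0.442). Iqgap3 (chr3:88081971-88121048) measured 34.0, 34.9 and 33.7 CPM against 31.9, 27.6 and 28.4 CPM, also without overlap (log2 fold change -0.23, SE 0.0837, adjusted p 0.189). Neither gene passed the test of genotype alone over all samples, and Nek6 had an adjusted p of 0.004 with the term for replicate 1. With 1 sample left out the adjusted p of Nek6 was from 0.0581 to 0.266 by edgeR. It was 0.192 by limma on the authors' gene-level values. Of the other IQGAP proteins, Iqgap1 had a log2 fold change of 0.06 and Iqgap2 of 0.19, and none of these 2 was called.

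Replicate 1 differed from replicates 2 and 3 in both genotypes for many genes of the whole set tested, and for most G2/M genes it was the highest. Replicate 1 was above both other replicates, in WT and again in Cul5 cKO, for 15 of 19 G2/M genes, for 7 of 23 G1/S genes and for 24 of the 47, against 23.4% of all genes tested. It was below both in both genotypes for none of the G2/M genes, for 5 G1/S genes (Ccnd2, Cdk6, Mcm4, Cdt1 and E2f1) and for 6 of the 47, against 22.0% of all genes. Summed over the 19 G2/M genes, the level was 5274, 4497 and 4569 CPM in WT and 4858, 4227 and 4521 CPM in Cul5 cKO, while the 23 G1/S genes summed to 6746, 6798 and 6447 CPM and to 6975, 6936 and 7260 CPM. For the G2/M genes, then, replicate 1 was the highest of each genotype. For the G1/S genes all 3 Cul5 cKO sums were above all 3 WT sums in these TMM-scaled CPM, a difference that was not tested. Its size depends on the scaling. By library size alone the median log2 fold change was 0.005 for the G1/S genes and -0.051 for all genes tested. The labels name no batch, and what replicate 1 shares between genotypes was not tested.

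**Figure D3:**
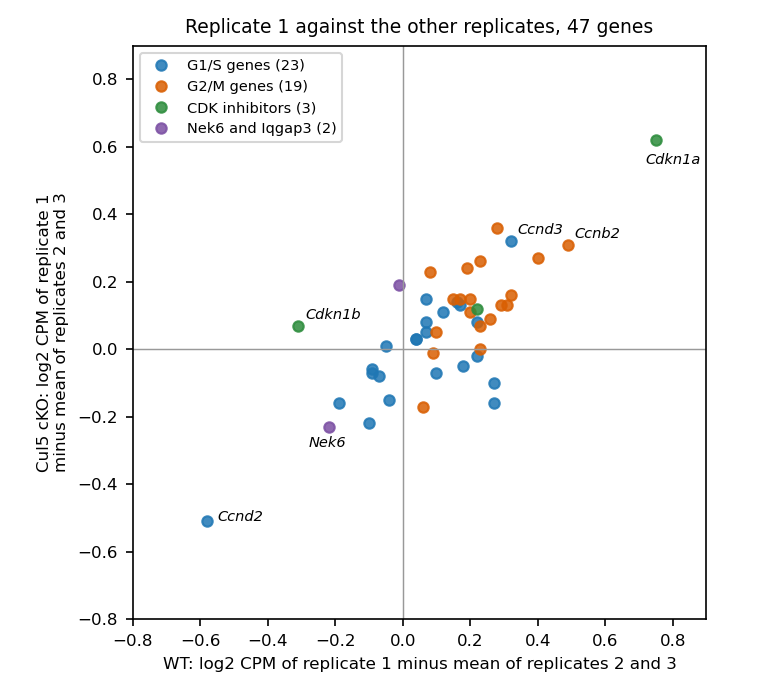
For each of the 47 genes, the log2 CPM of replicate 1 minus the mean of replicates 2 and 3 is plotted for WT (x axis) and Cul5 cKO (y axis), coloured by group. Most G2/M genes lie to the upper right of the origin, as do Ccnd3 and Cdkn1a (0.75 in WT and 0.62 in Cul5 cKO), and Ccnd2 lies far in the lower left (-0.58 and -0.51).

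Among the G2/M genes, the difference of replicate 1 was 0.49 in WT and 0.31 in Cul5 cKO for Ccnb2 on the log2 scale, 0.40 and 0.27 for Tpx2 and 0.28 and 0.36 for Cenpf. In the wider list of mitosis genes the pattern held for 30 of 57, and in that of replication genes for 13 of 44. Among G2/M genes with a promoter window, replicate 1 was above the others for 8 of 10 with a CHR element and for 4 of 5 without it. Over all tested genes with a CHR element it was so for 25.9%, against 24.1% of all with a window. With replicates 2 and 3 alone, 5 of the 47 genes were called, against 8.83% of all genes. These were Rrm2, Cdk6, Cdkn1a and Nek6, which rose, and Cdkn1b, which fell. With the difference of replicate 1 as a term in the fit of all 6 samples, 7 of the 47 were called, against 13.1% of all genes. They were the same 5 genes, in the same directions, and Cdkn2c (adjusted p 0.0217) and Mki67 (0.0382), which fell.

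The wider lists of the same pathways were written by name and hold none of the 47. Of 44 other replication genes (origin recognition, polymerases, clamp loaders, GINS and others), none was called, with estimates from -0.30 (Rfc4, a clamp loader subunit) to 0.27 (Orc1, of the origin recognition complex) and a median of 0.01. Of 16 genes of the E2F and Rb families and their partners, none was called, from -0.34 (Rbl2, the Rb relative p130 of resting cells) to 0.29 (Mybl2, a factor for late cell cycle genes), with a median of 0.10. Of 57 other mitosis genes, none was called, from -0.29 (Smc4, a condensin subunit) to 0.35 (Ube2s, a ubiquitin enzyme of the anaphase-promoting complex), with a median of -0.06. At an unadjusted p under 0.05 these lists held 7 of 44, 8 of 16 and 6 of 57 genes by edgeR, against 21.3% of all genes as given above. Calls at an adjusted p under 0.05 made up 1.03% of all genes tested.

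The list of CDK inhibitors and p53 targets held 21 genes, of which 18 were tested and 3 were called, against 1.03% of all genes tested. Plk2, a polo-like kinase induced by p53 and by stress, measured 13.2, 9.04 and 7.59 CPM in WT and 34.7, 25.9 and 33.9 CPM in Cul5 cKO. It rose (log2 fold change 1.61, SE 0.208, adjusted p 0.0205). Sesn2, a sestrin that restrains mTORC1 when nutrients are short and a p53 target, measured 15.9, 12.9 and 15.4 CPM against 25.2, 24.4 and 27.0 CPM and rose as well (log2 fold change 0.80, SE 0.112, adjusted p 0.0255). Ccng2, a cyclin of non-dividing cells that FoxO factors turn on, measured 33.7, 46.2 and 44.5 CPM against 20.8, 22.2 and 19.1 CPM. It fell to 49.9% of WT (log2 fold change -0.99, SE 0.135, adjusted p 0.0245). The calls rest on most of the samples. When WT replicate 2, WT replicate 3 and Cul5 cKO replicate 3 were left out in turn, the adjusted p was 0.105, 0.0888 and 0.123 for Plk2, 0.101, 0.111 and 0.141 for Sesn2, and 0.105, 0.121 and 0.141 for Ccng2. Without Cul5 cKO replicates 1 or 2 it was 0.0485 and 0.0459 for Plk2, 0.0515 and 0.0743 for Sesn2, and 0.0538 and 0.0714 for Ccng2. By limma, on the authors' values or on log2 TPM, it was from 0.0512 to 0.125 over the 3 genes. With all libraries thinned to the shallowest, edgeR gave 0.0615 for Sesn2 and 0.0664 for Ccng2, and Plk2 stayed called at 0.0219. On counts scaled from TPM, Ccng2 lost its call as well (edgeR adjusted p 0.0755). The groups did not overlap for any of these 3, nor for 27.5% of all genes tested. The plot of the wider lists shows the 3 beside the genes that were not called. The other 15 tested genes of the list were not called, and the median of the 18 was 0.05. The 3 untested were Cdkn1c, Cdkn2a and Cdkn2b, which encode CDK inhibitors and were too low for the filter.

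**Figure D4:**
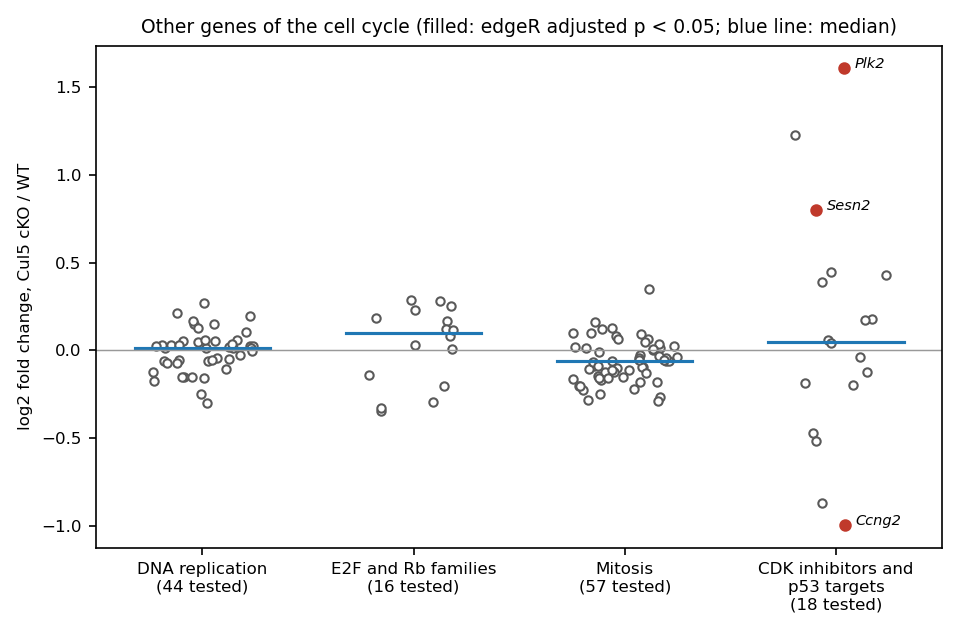
Each point is the log2 fold change (Cul5 cKO over WT, y axis) of a gene of the wider lists for DNA replication, the E2F and Rb families, mitosis, and CDK inhibitors with p53 targets, with the median of each list as a line. The filled points are Plk2 (1.61), Sesn2 (0.80) and Ccng2 (-0.99), all in the last list, and the first 3 lists lie between -0.34 and 0.35.

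Levels of different genes were compared in TPM, which divides by transcript length. The highest of the 47 in WT were Cdk4 at 667 ± 87.5, Pcna at 568 ± 34.0, Top2a at 416 ± 21.4 and Ccnd3 at 366 ± 35.9 TPM (SD, n = 3). The gap between Cdk4 and Pcna was close to the SD of Cdk4 and that between Top2a and Ccnd3 was below the sum of their SDs, so neither pair is clearly ordered. A transcript of 468 bases made up between 42.5% and 45.8% of the TPM of Cdk4 in WT. Its transcript of 2053 bases was at 147.6, 135.2 and 27.5 TPM in WT replicates 1, 2 and 3. The last of these is the shallowest library, and how far its split of transcripts moved the WT means and ranks was not tested. The lowest were Iqgap3 at 10.4 ± 0.695, Nek2 at 20.9 ± 2.28, Cdkn2c at 21.8 ± 2.51 and Cdk6 at 23.9 ± 4.26 TPM, of which the last 3 did not differ beyond their spread. Cdk6 thus ranked 44 of 47 and Cdk4 ranked 1 in TPM, both in WT. Of the inhibitors, Cdkn1a was at 75.8 ± 23 TPM in WT and 151 ± 42.1 TPM in Cul5 cKO, Cdkn1b at 38.9 ± 5.42 and 24.9 ± 0.394 TPM, and Cdkn2c at 21.8 ± 2.51 and 16.8 ± 0.866 TPM. In both genotypes the order of the 3 was the same, with Cdkn1a highest.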

How the data were processed

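RNA of 6 samples, 3 per genotype, was sequenced as poly-A libraries, and the authors pseudo-aligned the reads with kallisto 0.46.2 (GRCm38, Ensembl). They deposited estimated counts, not normalized, and TPM per transcript. A further deposited table gives log2 CPM per gene, normalized with TMM in edgeR 3.34.0, beside their own fold changes and p-values, which were not used. Estimated counts were summed by gene (GENCODE vM21, version numbers left off, 97.7% of 119414 transcripts matched), rounded, filtered with edgeR's defaults and tested with TMM and the quasi-likelihood test (edgeR 4.0.16, R 4.3.3, ~ genotype, all 6 samples). P-values were adjusted over all genes tested by the Benjamini-Hochberg method and called under 0.05. A floor of 3 counts was 0.759 CPM in WT replicate 3 and 0.128 to 0.133 CPM in the other libraries. The common dispersion of 0.0259 is a coefficient of variation of 16.1% between samples. Scripts were tested on simulated data. Genes sharing at least 95% identity over 150 bases were found with blastn 2.17.0. DESeq2 1.42.0 and limma 3.58.1 served as alternatives. The members, lists, rules and alternatives were chosen with earlier results of these data known. All 47 genes were named, and of each wider list the genes called and the highest and lowest estimate. Promoter windows came from RefSeq.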

Additional observations from a re-analysis of the deposited data

How the results depend on the processing

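The 47 genes gave 846 log2 fold changes under 18 alternatives, of which 741 kept their direction and their side of the threshold, 72 changed sign without a call in either fit (in 18 genes), 24 were newly called and 9 lost a call. No called value changed sign. The numbers called among all genes, among the 47 and among the wider lists were 133, 1 and 3 as reported.

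In the same order, 1688, 7 and 22 were called with replicate 1 against replicates 2 and 3 as a term, 1153, 5 and 12 in replicates 2 and 3 alone, 693, 4 and 8 by DESeq2, 228, 3 and 5 without a filter beyond 1 count in total, 149, 2 and 4 by library size alone, 145, 2 and 4 with at least 10 counts in every sample, 60, 0 and 2 on counts scaled from TPM, 42, 0 and 0 by limma on the authors' log2 CPM, 27, 0 and 0 by limma on log2(TPM + 1), and 30, 0 and 0 by limma on log2(TPM + 0.1). In the last 4 of these fits, 9 or 10 of the 47 had an unadjusted p under 0.05. With 1 sample left out, between 2 and 316 of all genes, between 0 and 3 of the 47 and between 0 and 5 of the wider lists were called. The lone call on Rrm2 was lost without WT replicate 2 or 3 or any of the Cul5 cKO replicates, and without WT replicate 1 there were 316, 3 and 5. The share of calls that were higher in Cul5 cKO was 59.4% as reported, 48.3% by library size alone and 37.0% without WT replicate 1. The median log2 fold change of the G1/S genes was 0.049, and 0.005 by library size alone, -0.002 on either log2 TPM scale, and from 0.029 to 0.095 with 1 sample left out. Over all genes tested the median was -0.007, and -0.051 by library size alone. On log2(TPM + 1) and log2(TPM + 0.1) it was -0.046 and -0.054. The median of the G2/M genes stayed between -0.111 and 0.012. The causes were not tested.

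Replicate numbers are shared by the genotypes. Samples of the same number deviated from their group means with correlations of 0.37, 0.206 and 0.0245 for numbers 1, 2 and 3. The numbers were not taken to pair the samples in the main fit, although number 1 showed a shared deviation. WT replicate 1 correlated at -0.266 and -0.187 with Cul5 cKO replicates 2 and 3. The replicate block called 848 genes, 6 of the 47 (Rrm2, Cdk6, Nek6, Cdkn1a at an adjusted p of 0.00154, Cdkn1b at 0.0196 and Cdkn2c at 0.0383) and 9 of the wider lists. WT replicates 1 and 2 correlated best with their own number and WT replicate 3 with Cul5 cKO replicate 2 (0.0914).

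WT replicate 3, the shallowest library, limits low genes. With all libraries thinned to its total, 132, 1 and 3 genes were called, but the wider-list genes were not the same 3. Plk2 kept its call (edgeR adjusted p 0.0219), and Sesn2 (0.0615) and Ccng2 (0.0664) lost theirs. The intervals of 40 of the 42 G1/S and G2/M genes lay within 1.5-fold, so smaller differences of these genes are not settled at this number of samples.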

Other observations

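In replicates 2 and 3 alone, further genes of the wider lists passed the test that did not pass it over all 6 samples. Of the E2F and Rb families, the pocket proteins Rb1 (96.1, 92.4 and 99.5 CPM in WT samples against 85.0, 78.4 and 71.3 CPM in Cul5 cKO samples, log2 fold change -0.35, adjusted p 0.0439 in those replicates) and Rbl2 (80.0, 69.4 and 65.5 against 72.2, 52.9 and 45.2 CPM, -0.47, adjusted p 0.0389) fell there, and E2f6 (0.33, adjusted p 0.0435) and Mybl2 (0.36, adjusted p 0.0397) rose. Over all 6 samples their adjusted p values were 0.117, 0.299, 0.0928 and 0.13.

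Among p53 targets and inhibitors, Trp53inp1, which p53 induces under stress, measured 82.2, 108 and 118 CPM in WT samples against 66.4, 54.9 and 46.6 CPM without Cul5. It fell in replicates 2 and 3 (log2 fold change -1.14, adjusted p 0.00735) and had an adjusted p of 0.0674 over all samples. Sesn1, a sestrin like Sesn2, fell in those replicates (-0.57, adjusted p 0.024), whereas Sesn2 rose, and Btg2 (-0.54, adjusted p 0.037) fell and Gadd45g (1.13, adjusted p 0.0344) rose. Aspm, of the spindle poles, was the 1 mitosis gene called there (-0.30, adjusted p 0.041). These genes were selected for passing in that fit, in which 8.83% of all genes passed.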
